A study of Mus musculus with 6 samples.

Results

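The promoters described here are those of divergent gene pairs, in which a pair of protein-coding genes starts from the same short stretch of DNA and is read in opposite directions. They were chosen from the GENCODE M21 annotation of GRCm38 and not from the measurements. A pair was kept when its genes lay on opposite strands of chromosomes 1 to 19, and when the 5′-most starts (TSS) of their protein-coding transcripts were at most 1 kb apart and pointed away from each other. This gave 755 pairs with 1495 genes, of 20722 coding genes on these chromosomes. The region of a pair ran from 1 kb downstream of one TSS to 1 kb downstream of the other. They were set beside 17874 single promoters, whose TSS had no other coding gene's 5′-most TSS within 2 kb and which were read within 1 kb on each side. A further 1353 genes belonged to neither class.

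The study used ChIP-seq to map the protein Tex10 and the histone mark H3K4me3 in PGCLCs of the mouse at day 2. These primordial germ cell-like cells are grown in culture as a model of the cells that later form eggs and sperm. All 6 samples were untreated cells of strain 129Sv/J, with 2 immunoprecipitated through an HA tag at the C-terminus of Tex10, 2 with an H3K4me3 antibody and 2 of input DNA. The tagged protein stands in for Tex10, and expression was not measured, so the cell type label could not be checked against marker genes. The deposited lists hold 1 set of intervals for each antibody, with 4331 HA-Tex10 and 29072 H3K4me3 intervals, of which 4129 and 27954 lay on chromosomes 1 to 19. They carry no height or score and no value of a single sample, so the error between replicates is unknown and no test was made. The depth is unknown. The 95% intervals below are Wilson intervals for shares and Newcombe intervals for differences of shares. They cover the counting of promoters only and treat promoters as independent, although 15 genes are in more than 1 pair.

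Most mammalian promoters of broadly used genes lie in CpG islands, and many of these islands serve genes on both strands. Divergent pairs are rich in genes for DNA repair, mitochondria and RNA handling, and their shared stretch is often read by factors such as the ETS family, NRF1 and NFY. H3K4me3 marks the nucleosomes just inside active or poised genes, and the stretch between the starts is usually kept free of nucleosomes. Tex10 is known from a nuclear complex that matures the large ribosomal subunit and as a chromatin-bound protein of pluripotent cells.

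The stretches between the starts of 7 pairs with an HA-Tex10 interval in their region are shown first, since they are the DNA that both genes share. They are among the textbook pairs and the pairs with the 10 widest intervals, overall or over both TSS, and have 40 to 300 bases and no annotated exon between the TSS. Each is the plus strand of GRCm38.p6 (RefSeq), read 5′ to 3′ from the base after the minus-strand gene's TSS to the base before the plus-strand gene's TSS. The first gene named is the one on the minus strand. Capitals mark matches on either strand to 9 short motifs. The letters searched were CCGGAAG for the ETS family. They were CCAAT for NFY. For SP factors they were GGGCGG. The CREB motif was TGACGTCA. The YY1 motif was AAGATGGCG. The E-box was CACGTG. The TATA box was read as TATAAA. The core of the ZNF143 motif was ACTACA. The palindromic NRF1 consensus was searched whole. The ETS and YY1 motifs can share the letters AAG.
Hist1h2bq/Hist1h2ao (chr13:21810198-21810464): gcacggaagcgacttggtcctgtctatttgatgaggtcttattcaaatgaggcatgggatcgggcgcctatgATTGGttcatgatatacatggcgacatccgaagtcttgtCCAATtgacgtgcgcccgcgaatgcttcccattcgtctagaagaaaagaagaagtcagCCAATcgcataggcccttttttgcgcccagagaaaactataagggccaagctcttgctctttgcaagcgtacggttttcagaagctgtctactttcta
Hist1h2bf/Hist1h2ad (chr13:23574197-23574380): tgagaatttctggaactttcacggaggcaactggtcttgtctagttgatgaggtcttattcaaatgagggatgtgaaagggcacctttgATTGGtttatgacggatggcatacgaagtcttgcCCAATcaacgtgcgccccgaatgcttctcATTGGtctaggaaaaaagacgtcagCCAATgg
Hist1h2ap/Hist1h2br (chr13:21833508-21833742): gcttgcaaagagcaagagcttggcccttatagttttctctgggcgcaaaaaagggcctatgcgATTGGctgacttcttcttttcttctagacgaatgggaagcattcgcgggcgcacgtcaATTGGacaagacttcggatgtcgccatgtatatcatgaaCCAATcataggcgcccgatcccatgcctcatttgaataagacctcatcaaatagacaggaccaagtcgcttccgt
Abce1/Anapc10 (chr8:79711741-79711819): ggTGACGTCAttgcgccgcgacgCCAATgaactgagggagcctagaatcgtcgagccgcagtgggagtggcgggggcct
Wdr4/Ndufv3 (chr17:31519981-31520114): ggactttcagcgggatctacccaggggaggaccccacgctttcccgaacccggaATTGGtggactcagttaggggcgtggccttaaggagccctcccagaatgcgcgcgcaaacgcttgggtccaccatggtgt
Rpgrip1l/Fto (chr8:91313263-91313524): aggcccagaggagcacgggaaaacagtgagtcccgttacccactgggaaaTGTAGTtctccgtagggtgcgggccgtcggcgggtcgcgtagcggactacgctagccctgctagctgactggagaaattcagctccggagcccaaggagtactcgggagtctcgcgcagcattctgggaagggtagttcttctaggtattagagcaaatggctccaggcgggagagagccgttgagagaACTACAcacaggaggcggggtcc
Cc2d1a/4930432K21Rik (chr8:84147937-84148024): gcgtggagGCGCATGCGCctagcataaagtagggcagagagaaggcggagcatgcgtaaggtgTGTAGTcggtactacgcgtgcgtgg

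The stretch of a textbook pair with H3K4me3 and no HA-Tex10 interval, of at least 40 bases and with no exon, is shown beside them.
Psmb1/Tbp (chr17:15499752-15499887): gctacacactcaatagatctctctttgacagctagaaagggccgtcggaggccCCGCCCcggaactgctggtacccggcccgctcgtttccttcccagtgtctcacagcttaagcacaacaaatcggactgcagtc

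The NFY motif was matched in 5 of these 7 stretches, 3 of which are shared starts of histone genes. It was in 44.1% of all marked pairs, read in 300 bases around the midpoint. At Hist1h2bf/Hist1h2ad and Hist1h2ap/Hist1h2br the HA-Tex10 intervals lay downstream of a TSS and not over the stretch shown. The Hist1h2ap/Hist1h2br stretch of 235 bases, read as its reverse complement, was identical at every base to part of the 267 bases of Hist1h2bq/Hist1h2ao. The longer stretch runs past it at both ends, so both show the same letters and the same NFY matches. The stretch without an HA-Tex10 interval held 1 match to the SP motif and none of the other motifs. A match is a description of the letters and not of binding.

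H3K4me3 was found at nearly every divergent pair. Of the 755 pairs, 721 had an H3K4me3 interval (95.5%, 95% interval 93.8 to 96.8%), against 59.7% of all coding promoters and 55.1% of single promoters (54.3 to 55.8%). The difference from single promoters was 40.4 percentage points (38.6 to 41.9). HA-Tex10 was found at 181 pairs (24%, 21.1 to 27.1%), against 8.43% of all coding promoters and 6.53% of single promoters. All 181 also had H3K4me3. Among promoters with H3K4me3, called marked below, HA-Tex10 was at 25.1% of pairs (22.1 to 28.4%) and at 11.5% of 9842 single promoters (10.9 to 12.1%). This is a difference of 13.6 percentage points (10.5 to 17.0). The pairs hold 4.58% of the HA-Tex10 intervals and 2.97% of the H3K4me3 intervals on these chromosomes.

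A pair has 2 starts, so the same 1 kb was also read downstream of each TSS alone. HA-Tex10 lay there at 218 of 1442 TSS of marked pairs (15.1%, 13.4 to 17.1%) and at 818 of 9842 marked single TSS (8.31%, 7.78 to 8.87%). Without chromosome 8, which holds many HA-Tex10 intervals, these shares were 13.2% and 7.19%. HA-Tex10 reached into the 1 kb downstream of both TSS at 44 marked pairs and of exactly 1 TSS at 130. The 2 TSS of a pair lie close together and are not independent. The 95% interval given for the 1442 TSS treats them as independent and is likely too narrow. A pair with a window of 2 kb around its midpoint, as wide as that of a single promoter, gave the same counts of 181 and 721.

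The 34 pairs without H3K4me3 had no HA-Tex10 interval, and a count of 0 of 34 allows a share of up to 8.82%. Single promoters without H3K4me3 had HA-Tex10 in 36 of 8032 cases (0.448%). The unmarked pairs with the shortest distances between TSS were Wdr54/1700003E16Rik (7 bp), Best1/Rab3il1 (36 bp), Elmod3/Retsat (62 bp), Slc30a3/Dnajc5g (70 bp) and Il11/Tmem190 (78 bp). Best1 is a chloride channel of the retinal pigment epithelium, Retsat a retinol saturase, Slc30a3 a zinc transporter of synaptic vesicles and Il11 a cytokine. Among the others, and named after their values were seen, were Col4a4/Col4a3, which encode basement membrane collagen chains, Smc1b/Ribc2, of which Smc1b is a meiotic cohesin subunit, and Hist1h2ba/Hist1h2aa, histone variants known from the testis. CpG dinucleotides were scarce in the unmarked pairs, with a median observed over expected ratio of 0.329 in 300 bases around the midpoint, against 0.869 in the marked pairs.

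In most marked pairs a single stretch of H3K4me3 ran across both starts. One interval covered both TSS in 574 of 721 pairs (79.6%, 76.5 to 82.4%), separate intervals covered the TSS in 12, only 1 TSS was covered in 89 and neither TSS base in 46. The share of marked pairs with HA-Tex10 was 24.9% of the 574, 24.7% of the 89 and 30.4% of the 46 (19.1 to 44.8%). H3K4me3 lay in the 1 kb downstream of both TSS in 658 pairs and of 1 TSS only in 61. Of these 61, 10 had HA-Tex10 (16.4%, 9.16 to 27.6%). The emptier side of a marked pair had a median of 733 bases of H3K4me3 downstream of its TSS, and the fuller side was covered throughout at the median.

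At 200 bp downstream, 90.8% of the TSS of marked pairs and 89.1% of marked single TSS were covered by H3K4me3. At 500 bp upstream, where the neighbouring gene of a pair lies, these shares were 86.0% and 30.8%. HA-Tex10 covered the TSS base itself at 10.1% of the TSS of marked pairs and 4.42% of marked single TSS. Its coverage was highest 200 bp upstream of a TSS in pairs, at 11.2%, and 50 bp downstream in single promoters, at 4.45%. In pairs the share stayed between 10.1% and 11.2% from the TSS to 200 bp upstream. At the median distance of 137 bp, a base 200 bp upstream of one TSS lies downstream of the other. Far downstream, HA-Tex10 coverage was lower in pairs than in single promoters, with 0.139% against 0.528% at 700 bp.

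**Figure D1:**
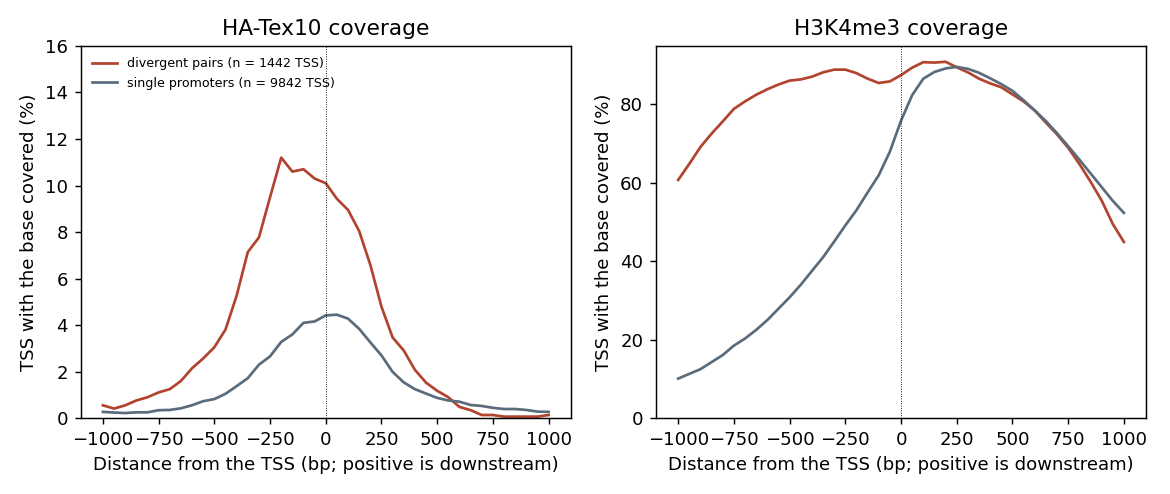
Share of TSS (%) whose base at each distance (bp, positive downstream) lies in an HA-Tex10 interval (left) or an H3K4me3 interval (right), for the 1442 TSS of marked divergent pairs and 9842 marked single promoters. HA-Tex10 peaks at 11.2% in pairs and 4.45% in single promoters, and H3K4me3 reaches further upstream in pairs, where the other gene lies, with 60.7% against 10.1% at 1000 bp upstream.

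Bases were then pooled over pairs, so pairs with distant starts weigh more between the TSS. Counted in this way, HA-Tex10 was densest between the starts, close to its 10.1% at the TSS base. Its intervals covered 10.2% of all bases between the TSS of marked pairs, 8.69% of bases in the first 200 bp downstream, 3.83% in the next 200 bp and 0.154% in the last 400 bp of the 1 kb. In marked single promoters they covered 3.92% of the 200 bp upstream, 4.10% of the first 200 bp downstream and 0.438% of the last 400 bp. H3K4me3 covered less of the stretch between the TSS of marked pairs, 81% of bases, than of the first 200 bp downstream, 90%. In 573 of 721 marked pairs, however, it covered every base between the TSS (79.5%, 76.4 to 82.3%).

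The regions held 189 distinct HA-Tex10 intervals, or 198 when an interval in overlapping regions is counted with each pair. Of the 198, 36 covered both TSS (18.2%, 13.4 to 24.1%), 74 covered 1 TSS, 9 lay wholly between the TSS and 79 lay wholly downstream of a TSS (39.9%, 33.3 to 46.8%). Of the 181 pairs, 119 had an interval that touched the stretch between the starts (65.7%, 58.6 to 72.3%). The centre of the interval lay in that stretch in 46 of 198 cases. The 152 other centres lay a median of 128 bp downstream of a TSS (quartiles 62.2 and 240 bp), 70 on the side of the minus-strand gene and 82 on the side of the plus-strand gene. Where the sides differed in H3K4me3, 60 of 111 off-centre intervals were on the fuller side (54.1%, 44.8 to 63%), and in 41 further cases the sides were equal. The intervals were 4 to 1058 bp wide with a median of 258 bp, against 232 bp at marked single promoters.

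**Figure D2:**
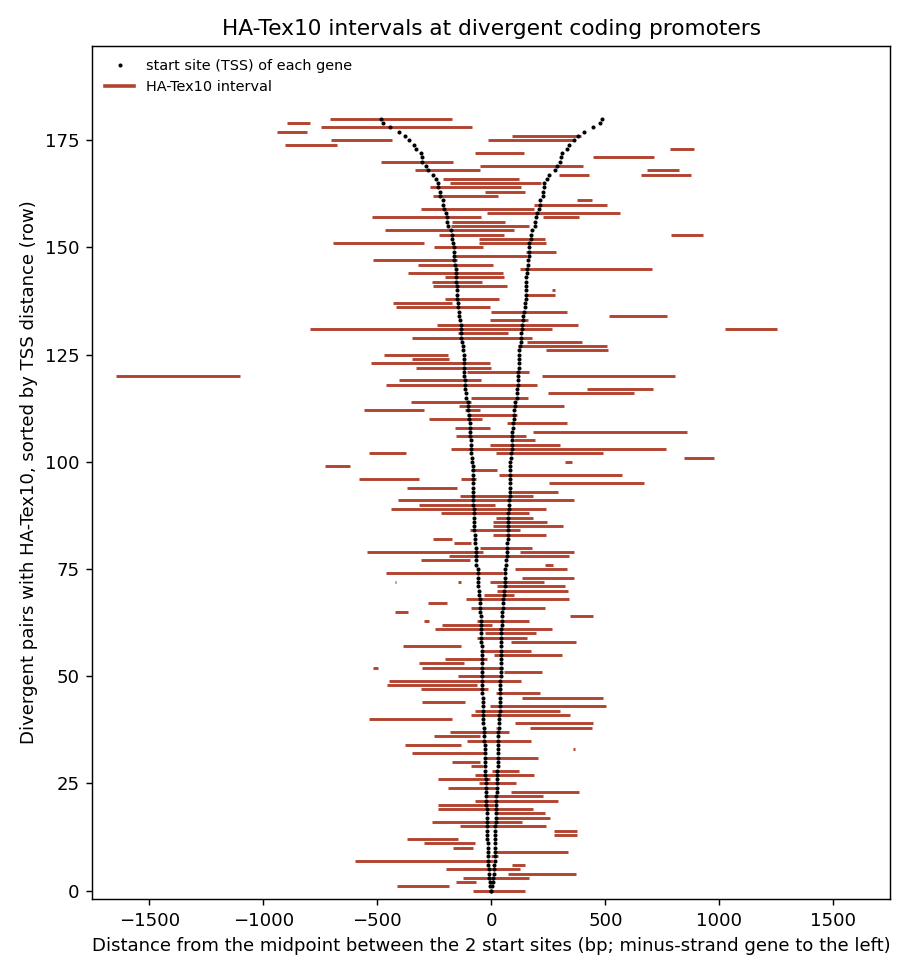
HA-Tex10 intervals (lines) in the 181 divergent pairs that carry one, 1 row per pair sorted by the distance between its TSS (dots), by distance from the midpoint (bp). Of the 198 intervals, 36 lie over both TSS, and 79 lie wholly downstream of a TSS, on both sides of the shared stretch.

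Of the 198 intervals, 193 met an H3K4me3 interval of the same region. The 5 others lay at Dbi/3110009E18Rik, Hist1h2bl/Hist1h2ai, Hist1h2ak/Hist1h2bn, Tas1r1/Nol9 and Parp3/Rrp9, named for this reason after their values were seen. Nol9 and Rrp9 are ribosome assembly factors, and at both pairs the H3K4me3 downstream of the TSS was all on their side, with 960 bases at Nol9, full cover at Rrp9 and 0 bases for both partners. The HA-Tex10 interval of 302 bp at Tas1r1/Nol9 covered the Nol9 TSS. That of 327 bp at Parp3/Rrp9 covered the Parp3 TSS and did not reach the Rrp9 TSS. Both were centred between the starts. By distinct interval, the centre fell inside H3K4me3 in 173 of 189 cases in pairs (91.5%, 86.7 to 94.7%) and in 1057 of 1226 at marked single promoters (86.2%, 84.2 to 88%). The centre fell in a break with H3K4me3 within 500 bp on both sides of the interval in 12 cases in pairs (6.35%, 3.67 to 10.8%) and in 29 cases at single promoters (2.37%, 1.65 to 3.38%). Such a break needs H3K4me3 on both sides. At 500 bp upstream it covered 86% of the TSS of marked pairs and 30.8% of marked single TSS. The part of this in the difference was not tested.

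The distance between the starts was 1 to 987 bp with a median of 137 bp. It had a median of 157 bp in marked pairs with HA-Tex10 and 131 bp in those without. HA-Tex10 was at 24.2% of marked pairs with up to 100 bp between the TSS (19.5 to 29.6%) and 23% of those over 100 and up to 200 bp (17.6 to 29.3%). It was at 26.3% over 200 and up to 300 bp (18.6 to 35.7%), 36.7% over 300 and up to 500 bp (26.9 to 47.7%) and 20% over 500 bp (12.3 to 30.8%). These intervals overlap, so no order is read from them. One H3K4me3 interval lay over both TSS in 90.6% of marked pairs up to 100 bp apart and in 52.9% of those over 500 bp apart. Pairs over 1 kb and up to 2 kb apart, which are outside the rule, had HA-Tex10 in 24 of 97 marked cases (24.7%, 17.2 to 34.2%) and 1 interval over both TSS in 12.4%. Nearest to the limit, Btf3l4/Txndc12 at 987 bp had H3K4me3 and no HA-Tex10. Ddias/Prcp at 1005 bp, just outside, had both, and 5330417C22Rik/1700013F07Rik at the same distance had neither.

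**Figure D3:**
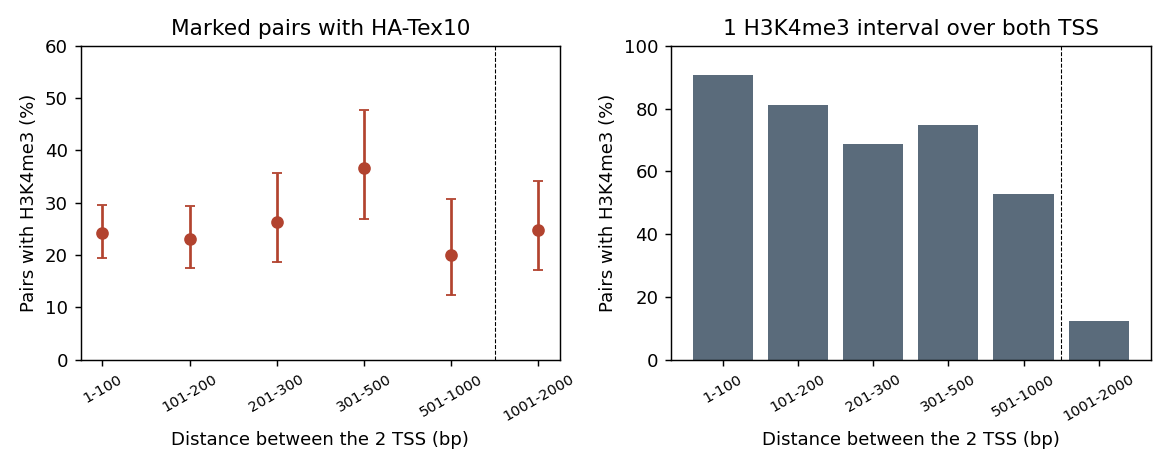
Marked pairs with HA-Tex10 (left, points with Wilson 95% intervals) and with 1 H3K4me3 interval over both TSS (right, bars), both in % of marked pairs, by the distance between the TSS (bp); pairs right of the dashed line are outside the rule. The HA-Tex10 share stays between 20% and 36.7%, and the single H3K4me3 interval falls from 90.6% to 12.4%.

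Pairs also carried wider H3K4me3, and the width moved with HA-Tex10 in both classes. The widest H3K4me3 interval had a median of 1944 bp at marked pairs and 1240 bp at marked single promoters. Pairs with HA-Tex10 had a median of 2090 bp and those without 1907 bp. At promoters whose widest interval was under 1000 bp, HA-Tex10 was at 9 of 81 pairs (11.1%, 5.96 to 19.8%) and 6.09% of single promoters. From 1000 to under 2000 bp it was at 26.1% of 299 pairs (21.4 to 31.3%) and 12.4% of 4319 single promoters (11.4 to 13.4%). From 2000 to under 3000 bp the shares were 25.8% (20.8 to 31.5%) and 18.7% (16.7 to 20.8%), and at 3000 bp or more 32.9% (23.9 to 43.5%) and 22.2% (18.8 to 26%). The pairs had the higher share in each of the 4 classes, and their intervals touched or overlapped those of single promoters in all but the class from 1000 to under 2000 bp. The part of the width in the difference between pairs and single promoters was not tested.

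**Figure D4:**
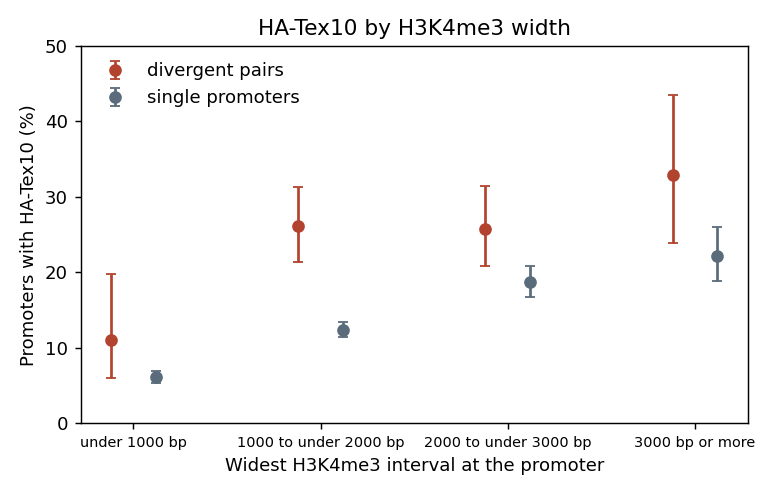
Share of marked promoters with HA-Tex10 (%, Wilson 95% intervals) by the width of their widest H3K4me3 interval, for divergent pairs and single promoters. Pairs lie above single promoters in each class, 26.1% against 12.4% from 1000 to under 2000 bp and 25.8% against 18.7% from 2000 to under 3000 bp.

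Other kinds of paired starts were read in the same way, after the first results were seen. Single coding promoters with a long noncoding RNA gene that starts within 1 kb upstream on the other strand numbered 666. They had H3K4me3 in 84.7% of cases (81.8 to 87.2%), and 83 of 564 marked ones had HA-Tex10 (14.7%, 12 to 17.9%). Their widest H3K4me3 interval had a median of 1532 bp. Coding pairs whose starts overlap by up to 1 kb, and so do not meet the rule, numbered 382. Of these, 95.3% had H3K4me3 (92.7 to 97%) and 79 of 364 marked ones had HA-Tex10 (21.7%, 17.8 to 26.2%), an interval that overlaps that of the divergent pairs.

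Chromosome 8 stood apart. There 30 of 52 marked pairs had HA-Tex10 (57.7%, 44.2 to 70.1%), and so did 35.6% of marked single promoters (31.7 to 39.7%). Without it, the shares were 22.6% (19.6 to 25.9%) and 10.1% (9.48 to 10.7%). The share was higher in pairs on 17 of 19 chromosomes, the exceptions being chromosomes 16 (8.33% against 11.4%) and 18 (8.33% of 12 pairs against 8.42%). On chromosome 13, 18 of 36 marked pairs had HA-Tex10 (50%, 34.5 to 65.5%). Without pairs of clustered histone genes, 8 of 25 did (32%, 17.2 to 51.6%).

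**Figure D5:**
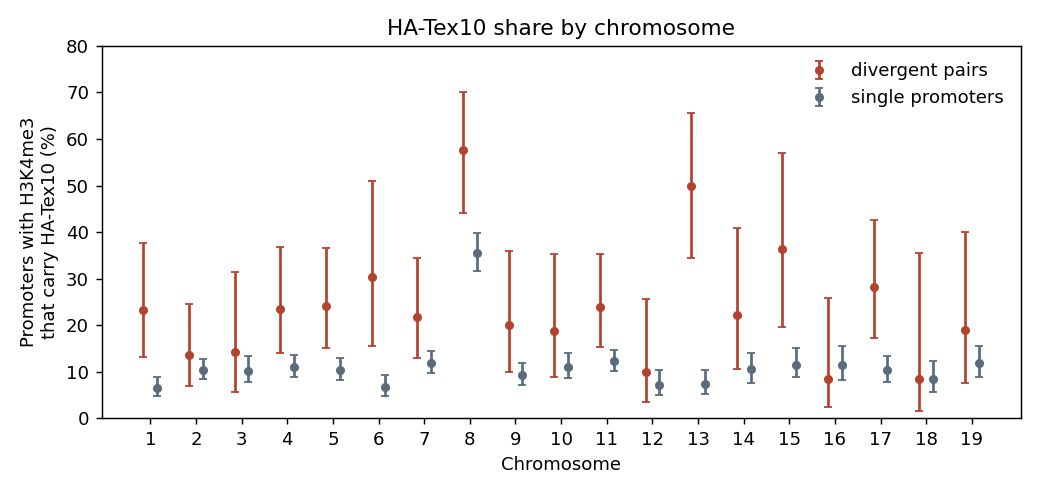
Share of marked promoters with HA-Tex10 (%, Wilson 95% intervals) on each chromosome, for divergent pairs and single promoters. On chromosome 8 the shares are 57.7% and 35.6%, and on chromosome 13 they are 50% and 7.31%.

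The histone genes made up 14 of the pairs, 12 of them on chromosome 13. In 13 of the 14 both genes were clustered histone genes, mostly one for H2A and one for H2B, the histones that dimerise in the nucleosome. Of 13 marked histone pairs, 10 had HA-Tex10 (76.9%, 49.7 to 91.8%), against 7 of 15 marked single clustered histone promoters (46.7%, 24.8 to 69.9%). Hist1h2bq/Hist1h2ao had the widest interval of all pairs, 1058 bp (chr13:21809539-21810596), which covered both TSS, and another of 229 bp centred 1003 bp downstream of the Hist1h2ao TSS. Hist1h2ap/Hist1h2br had intervals of 546 and 583 bp, one downstream of each TSS and neither over the shared stretch. Hist1h2bf/Hist1h2ad had 1 interval of 675 bp downstream of the Hist1h2ad TSS, and Hist1h2ae/Hist1h2bg had 2, of 163 and 467 bp. These genes are near copies of each other. Of the 13 intervals in histone pairs, 12 had over 50% of their 32-base words at more than 1 place in the genome. In all pairs, 14 of 189 intervals did, and the part of repeats in them was not tested. Without such intervals, 170 of 721 marked pairs had HA-Tex10 (23.6%, 20.6 to 26.8%).

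Genes of DNA replication and repair occurred in 20 pairs, all marked, and 7 had HA-Tex10 (35%, 18.1 to 56.7%). Of 59 marked single promoters of such genes, 7 had it (11.9%, 5.87 to 22.5%). Over all marked promoters it was at 25.1% of pairs and 11.5% of single promoters. The 25.1% lies inside the interval of this group and of each group below except proteasome and ubiquitin genes. At Brca1/Nbr1, a homologous recombination factor beside an autophagy receptor, the interval was 619 bp wide (chr11:101551776-101552394) and covered both TSS, 270 bp apart. H3K4me3 was split there into intervals of 1003 and 1646 bp, and the HA-Tex10 interval bridged the break. At Mcm4/Prkdc, a subunit of the replicative helicase beside the catalytic subunit of the DNA-dependent protein kinase, the interval of 332 bp (chr16:15637435-15637766) lay wholly between the TSS, within a single H3K4me3 interval of 2347 bp. Rad51ap1/D6Wsu163e, of which Rad51ap1 assists strand exchange, had 340 bp wholly between the starts (chr6:126939601-126939940), touching only 1 of its 2 H3K4me3 intervals. At Atm/Npat, the kinase that responds to DNA double-strand breaks and a coactivator of histone genes, 257 bp covered the Atm TSS (chr9:53536692-53536948).

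Splicing genes occurred in 15 pairs, all marked, and 6 had HA-Tex10 (40%, 19.8 to 64.3%), against 10 of 38 marked single promoters (26.3%, 15 to 42%). Srsf7/Ttc39d had 676 bp over both TSS (chr17:80206945-80207620). H3K4me3 lay on the side of Srsf7, a serine and arginine rich splicing factor, over the whole 1 kb downstream of its TSS and over 0 bases downstream of the Ttc39d TSS. Hnrnpa2b1/Cbx3 joins an RNA-binding protein to a heterochromatin protein and is known for its unmethylated CpG island. Its interval of 396 bp (chr6:51469948-51470343) lay wholly in the 466 bp between the starts, partly over a break in H3K4me3. Srsf2/Mfsd11 had 2 intervals, 271 bp downstream of the Srsf2 TSS and 373 bp between the TSS, which were 726 bp apart. At Ttc9c/Hnrnpul2 the interval of 229 bp lay downstream of the Ttc9c TSS.

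Mitochondrial genes formed the largest group with 46 pairs, all marked, and 10 had HA-Tex10 (21.7%, 12.3 to 35.6%), against 17 of 115 marked single promoters (14.8%, 9.44 to 22.4%). Of the 10, Emc8/Cox4i1 and Gm27021/Cox4i1 on chromosome 8, named because they share Cox4i1 and 1 interval, count as 2. Mrps18b/Ppp1r10, a mitochondrial ribosomal protein and a regulator of protein phosphatase, had 946 bp over both TSS (chr17:35916299-35917244). Wdr4/Ndufv3, a tRNA methylation factor and a subunit of respiratory complex I, had 527 bp over both TSS, and Klc4/Mrpl2 460 bp over both. At Timm9/2700049A03Rik, of which Timm9 is a chaperone of the inner membrane import path, 418 bp lay on the side of 2700049A03Rik.

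Cytosolic ribosomal protein genes occurred in 8 pairs, and 3 had HA-Tex10 (37.5%, 13.7 to 69.4%), against 20 of 60 marked single promoters (33.3%, 22.7 to 45.9%). Rps18/Vps52 had 512 bp over the Rps18 TSS and 235 bp downstream of the Vps52 TSS. The Med22/Rpl7a interval of 284 bp lay downstream of the Rpl7a TSS, and the Rpl9/Lias interval was 115 bp wide and covered the Lias TSS. Genes of RNA polymerases and general transcription occurred in 23 pairs with 6 intervals (26.1%, 12.5 to 46.5%), against 14 of 66 marked single promoters (21.2%, 13.1 to 32.5%). Hps5/Gtf2h1, of which Gtf2h1 is a subunit of the factor TFIIH, had 393 bp over both TSS. Serac1/Gtf2h5 had 246 bp, Taf6/Cnpy4 226 bp and Med22/Rpl7a is the pair given above. Bysl/Med20, a ribosome assembly factor and a Mediator subunit, had 219 bp over the Bysl TSS.

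The remaining groups were small. Proteasome and ubiquitin genes occurred in 13 marked pairs, none with HA-Tex10, and a count of 0 of 13 allows a share of up to 23.1%, while 19 of 105 marked single promoters had one (18.1%, 11.9 to 26.5%). Chaperone genes had HA-Tex10 at 2 of 12 marked pairs (16.7%, 4.7 to 44.8%), against 10 of 45 marked single promoters (22.2%, 12.5 to 36.3%). At Tsacc/Cct3, of which Cct3 is a subunit of the cytosolic chaperonin, there were 3 intervals of 4, 11 and 235 bp, the most of any pair, and at Hsp90b1/Ttc41 there was 1 of 125 bp downstream of the Ttc41 TSS. Translation factors and tRNA ligases had it at 2 of 12 (16.7%), against 13 of 75 marked single promoters (17.3%, 10.4 to 27.4%). One of the 2 pairs was Kars/Terf2ip, with 355 bp downstream of the Terf2ip TSS. Zfp genes had it at 4 of 17 (23.5%, 9.56 to 47.3%), against 12.5% of 297 marked single promoters. These were Zfp319/Usb1, with 401 and 292 bp, Zfp408/Arhgap1, Zfp672/Sh3bp5l and Dedd2/Zfp526. Pairs with no gene of these groups had HA-Tex10 in 132 of 555 marked cases (23.8%, 20.4 to 27.5%). They made up 132 of the 181 pairs with HA-Tex10 and 555 of all 721 marked pairs.

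Several of the widest intervals were at such pairs. Top3a/Smcr8, a topoisomerase and an autophagy regulator, had 773 bp over both TSS, inside 2753 bp of H3K4me3. Brd2/H2-DMa, a bromodomain protein and a chain of the class II peptide-loading factor, had 660 bp (chr17:34122256-34122915) over both TSS and over a break in H3K4me3. On chromosome 8, Fhod1/Slc9a5 had 663 bp over the Fhod1 TSS, Abce1/Anapc10 578 bp, Rpgrip1l/Fto 525 bp and Cc2d1a/4930432K21Rik 514 bp, the last 3 over both TSS. Tnfaip1/Ift20 had 605 bp that began downstream of the Tnfaip1 TSS and ended between the starts, which were 29 bp apart. Safb2/Safb, a pair of related scaffold attachment factors, had 478 bp over the Safb2 TSS and 158 bp downstream of the Safb TSS. Of the 181 pairs, 165 had 1 interval, 15 had 2 and 1 had 3. Rfxank/Borcs8 and Rfxank/Mef2b share a region on chromosome 8 and the same 2 intervals, of 285 and 140 bp.

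Of a list of 20 pairs known from textbooks, by the annotated 5′-most starts, 11 met the rule and 9 had starts that overlap, among them Hspd1/Hspe1. All 11 had H3K4me3. HA-Tex10 was at 4, Brca1/Nbr1, Mcm4/Prkdc, Atm/Npat and Bysl/Med20, and not at the other 7, which include Gart/Son, Pdcd10/Serpini1, Mrps12/Sars2, Psmb1/Tbp and Ranbp1/Trmt2a. Wide H3K4me3 did not imply an interval, as Gart/Son had 3787 bp and Ranbp1/Trmt2a 3078 bp over both TSS. At Pdcd10/Serpini1 the H3K4me3 covered the Pdcd10 TSS and part of the shared stretch, and ended before the Serpini1 TSS. Of the 1 kb downstream of each TSS, it lay in that of Pdcd10 only.

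The base composition of the shared stretch was read in 300 bases around the midpoint of a pair, and from 250 before to 50 after the TSS of a single promoter. Marked pairs had a median GC content of 62.7% and a CpG observed over expected ratio of 0.869, against 61% and 0.747 at marked single promoters. Pairs with HA-Tex10 had 61% and 0.857, and marked pairs without it 63% and 0.871. HA-Tex10 was more frequent in marked pairs than in marked single promoters in each of 5 classes of the CpG ratio. In the class from 0.8 to 1.0 it was at 25.8% of 298 pairs (21.2 to 31.1%) and 11.8% of 2903 single promoters (10.7 to 13%), and below 0.4 at 6 of 28 pairs (21.4%, 10.2 to 39.5%) and 7.16% of 1173 single promoters.

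Several motifs were matched more often in pairs than in single promoters, in the unlike windows given above. At the median distance of 137 bp the window of a pair held both TSS and bases downstream of each. That of a single promoter held its own TSS and mostly bases upstream. The part of this in the differences of composition and motifs was not tested. The ETS motif, bound by factors such as GABPA, was in 29.1% of marked pairs (25.9 to 32.5%) and 15.2% of marked single promoters (14.5 to 15.9%), and in 27.9% of all pairs and 9.39% of all single promoters. The YY1 motif was in 5.69% (4.22 to 7.62%) and 2.36% (2.08 to 2.68%) of marked promoters, NRF1 in 3.19% (2.13 to 4.74%) and 1.81% (1.56 to 2.09%), and NFY in 44.1% (40.5 to 47.8%) and 38.4% (37.4 to 39.3%). The intervals overlapped for the SP motif (68.2% and 65.9%), the E-box (10.7% and 10.1%) and CREB (4.58% and 3.32%). They also overlapped for the ZNF143 core, in 13% (10.8 to 15.7%) and 10.4% (9.83 to 11%), and for TATA, in 4.72% (3.39 to 6.52%) and 6.80% (6.32 to 7.31%).

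Within the marked pairs, the intervals of the shares with and without HA-Tex10 overlapped for each of the 9 motifs. The ETS motif was in 29.8% of marked pairs with HA-Tex10 (23.6 to 36.9%) and 28.9% of those without (25.2 to 32.9%), and NRF1 in 3.31% and 3.15%. At marked single promoters, ETS was in 19.9% of those with HA-Tex10 (17.7 to 22.3%) and 14.6% of those without (13.9 to 15.3%). The intervals there also lay apart for NRF1, NFY, SP, CREB and the E-box, each higher with HA-Tex10. They overlapped for YY1, TATA and the ZNF143 core. With 1132 single promoters and 181 pairs that had HA-Tex10, the intervals of pairs are wider and overlap more readily. NFY was in 48.6% of marked pairs with HA-Tex10 (41.4 to 55.9%) and 42.6% of those without (38.5 to 46.8%). All 10 histone pairs with HA-Tex10 held it, and without histone pairs it was in 78 of 171 (45.6%). TATA was in 13 of 181 pairs with HA-Tex10 (7.18%, 4.25 to 11.9%) and 3.89% of those without (2.56 to 5.87%). Of these 13, 7 were histone pairs, and without histone pairs it was in 6 of 171 (3.51%).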

How the data were processed

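ChIP-seq was done on 2 HA-Tex10, 2 H3K4me3 and 2 input samples. The authors deposited 3 lists of intervals in BED form, with start and end in bp and empty score and strand columns. Bowtie2 2.3.4.3, SAMtools 1.9, MACS2 2.1.2, HOMER and build mm10 are named in the submitters' processing notes, with no role or order. The threshold, the use of the input and the joining of replicates are not given in the sources used here. No interval on the 19 autosomes ended past a GRCm38.p6 chromosome end. Starts were made to count from 1. The third list holds HA-Tex10 intervals that meet H3K4me3 and served as an alternative.

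Pairs, single promoters and overlaps of at least 1 bp were computed in Python 3.11.15 with pandas 2.3.3, and Wilson and Newcombe 95% intervals with statsmodels 0.14.6. A count of 0 was given a limit of 3 counts. Repeated sequence was read as the share of 32-base words of an interval that lie at more than 1 place on the nuclear chromosomes, with over 50% called mostly repeated and intervals under 100 bp widened. The functions were tested on simulated data. Gene groups were set by symbol. Textbook pairs, pairs with the widest, several or TSS-spanning intervals, unmarked pairs nearest together and up to 4 pairs per gene group are named. Some named pairs and sequences are not reported here. The members and lists were chosen with earlier results of these data known. Alternatives changed the TSS distance, flank, window, overlap rule, lists, chromosomes, histone pairs and single promoters.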

Additional observations from a re-analysis of the deposited data

How the results depend on the processing

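No paired analysis was possible because the 2 lists name no replicate, so none was left out either. A promoter without an interval was not detected at this unknown depth and is not shown to lack Tex10 or H3K4me3.

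The shares with HA-Tex10 and with H3K4me3 and their differences from single promoters were recomputed under 13 alternatives. So was the share of HA-Tex10-carrying pairs with an interval touching the shared stretch. Of the alternatives, 2 were chosen after seeing the data (mostly repeated intervals left out, and 1 pair per region). Of 72 values, 65 stayed within the 95% interval of the reported value and 7 moved. Some of the 65 could not move, such as the H3K4me3 share when only the HA-Tex10 list changed. A share cannot change sign. The differences from single promoters were above 0 in all 13 settings where they were computed, the main one included. With HA-Tex10 intervals wider than the median only, HA-Tex10 was at 14.4% of pairs and 15.1% of marked pairs, the difference from marked single promoters was 9.14 percentage points, and 77.1% of carrying pairs had an interval touching the shared stretch. With H3K4me3 intervals wider than the median only, 89.8% of pairs were marked, 46.4 percentage points more than single promoters. When the centre of the interval had to lie inside, 25.4% of carrying pairs had an interval in the shared stretch. Repeated sequence was read for the intervals of pairs only, so the differences from single promoters were not computed in that setting. The 5 kb isolation of single promoters bears on the differences only.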

Other observations

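The X and Y chromosomes, which the rule leaves out, held 21 divergent pairs of coding genes. Of these, 15 had H3K4me3 and 0 had HA-Tex10, and a count of 0 of 21 allows a share of up to 14.3%.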
